A study of Mus musculus with 28 samples.

Results

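The myeloid regulator and effector loci are 6 mouse genomic windows that surround the genes Cebpa, Spi1, Gfi1, Irf8, Mpo and Csf1r. Their members are the peaks of 5-hydroxymethylcytosine (5hmC) and 5-methylcytosine (5mC) that overlap these windows. In the coordinates of the mm9 build the windows are chr7:35880001-35970000 for Cebpa (90 kb), chr2:90900001-90970000 for Spi1 (70 kb), chr5:108130001-108170000 for Gfi1 (40 kb), chr8:123240001-123340000 for Irf8 (100 kb), chr11:87590001-87630000 for Mpo (40 kb) and chr18:61250001-61310000 for Csf1r (60 kb). Together they span 400 kb and hold 1098 of the 1489550 peaks in the 11 deposited lists, of which 742 are 5hmC peaks (of 815277) and 356 are 5mC peaks (of 674273). The windows were set by position and not by their signal. All libraries came from bone marrow cells labelled LK, a name commonly used for lineage-negative, Kit-positive progenitors, of young C57BL/6 mice (6 to 10 weeks). The 5hmC libraries, made by selective chemical labelling and capture (hMe-Seal), came from mice that lack Tet1 and Tet2 (DKO, 2 libraries), mice that lack Tet2 (Tet2KO, 2) and wild-type mice (WT, 2). The 5mC libraries, made by immunoprecipitation of methylated DNA (MeDIP-seq), came from DKO (2), Tet2KO (1) and WT (2) mice. How the alleles were made, and whether animals were pooled for a library, is not given in the sources used here, and the cell label could not be checked against marker genes in peak lists.

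TET1 and TET2 are dioxygenases that convert 5mC to 5hmC, an intermediate of DNA demethylation and a mark often found over active enhancers and gene bodies. Loss of TET2 is known from myeloid malignancies and expands stem and progenitor cells in mice. Of the 6 genes, 4 encode transcription factors: Cebpa encodes C/EBPα, which granulocyte and monocyte progenitors need, and Spi1 encodes PU.1, which acts in myeloid and B-lymphoid development. Gfi1 encodes a repressor needed for neutrophil production, and Irf8 a factor that favours monocytes and dendritic cells over granulocytes. Mpo and Csf1r are effectors: myeloperoxidase is an enzyme of neutrophil granules that is already made in progenitors, and Csf1r encodes the receptor for the macrophage growth factor CSF1. By gene order in RefSeq (GRCm38.p6), the protein-coding neighbours are Gm45095 and Slc7a10 for Cebpa, Slc39a13 and Mybpc3 for Spi1, Rpap2 and Evi5 for Gfi1, Cox4i1 and Foxf1 for Irf8, Tspoap1 and Lpo for Mpo, and Pdgfrb and Hmgxb3 for Csf1r. Peaks of a window were not split between a gene and its neighbours.

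Both marks sit mainly on CpG dinucleotides, and the promoters of these genes differ in how many they hold, so 3 promoters are printed to show the range. RefSeq (build GRCm38.p6) gave promoters for 4 of the 6 loci, with 6 entries in all: Cebpa, Gfi1 (2), Irf8 (2) and Mpo. In the 250 bases before the start of the transcript, the first Irf8 promoter held 29 CpG and the Cebpa promoter 22, against 13 and 9 for the Gfi1 promoters, 8 for the second Irf8 promoter and 2 for Mpo. The median over 32851 mouse promoters of the same length was 6, and 6.78% of them held at least as many as the first Irf8 promoter, 14.8% as many as Cebpa and 81.2% as many as Mpo. CG reads the same on both strands, and no overlap with another motif was examined. Capitals mark each CG below. The 3 sequences are all on the plus strand and are chr8:120736108-120736357 (Irf8), chr7:35119043-35119292 (Cebpa) and chr11:87793534-87793783 (Mpo) in GRCm38.p6. That build differs from the build of the peaks, so promoters were not placed on the peaks.
Irf8 promoter: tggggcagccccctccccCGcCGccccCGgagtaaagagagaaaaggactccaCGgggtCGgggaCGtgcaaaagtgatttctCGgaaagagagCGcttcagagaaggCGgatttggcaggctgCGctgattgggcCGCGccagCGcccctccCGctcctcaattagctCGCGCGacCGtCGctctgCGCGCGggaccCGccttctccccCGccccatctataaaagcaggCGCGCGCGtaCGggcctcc
Cebpa promoter: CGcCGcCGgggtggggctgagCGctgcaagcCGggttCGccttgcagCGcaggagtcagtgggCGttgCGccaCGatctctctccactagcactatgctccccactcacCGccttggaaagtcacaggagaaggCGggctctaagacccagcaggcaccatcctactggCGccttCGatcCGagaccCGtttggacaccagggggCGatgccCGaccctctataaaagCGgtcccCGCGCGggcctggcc
Mpo promoter: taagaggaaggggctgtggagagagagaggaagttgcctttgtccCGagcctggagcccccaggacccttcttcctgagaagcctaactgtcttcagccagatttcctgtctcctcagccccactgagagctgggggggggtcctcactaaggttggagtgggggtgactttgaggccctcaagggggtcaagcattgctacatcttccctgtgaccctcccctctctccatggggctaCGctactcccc

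Each deposited list is the set of enriched intervals of 1 library, with a score from the authors for each peak and no read counts. The values below are therefore the share of a window covered by peaks and the presence of a peak, and the sequencing depth behind them is unknown. Over the whole genome the 6 5hmC lists held 128471 to 143960 peaks of median width 598 to 728 bp and covered 3.73% to 4.23% of the placed genome, while the 5 5mC lists held 120243 to 147934 peaks of median width 275 to 331 bp and covered 1.65% to 1.71%. Tet2KO replicate 2 stood low among the 5hmC libraries, with 26.3% of the 6 windows covered, against 30.5% to 33.6% in the other 5. It also covered the smallest part of the genome, 3.73%. Whole-window differences and counts of higher and lower bins that turn without it are given below with and without it. Counts of changed regions without it enter only the ranges given for leaving out 1 library. The overlap of the marks in Tet2KO was computed only with it.

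5hmC peaks covered a median of 32.1% of the 6 windows across libraries, with 115 to 137 peaks per library. Irf8 was the most densely covered locus. Its window was 42.8% and 42.3% covered in the DKO libraries (35 and 40 peaks), 43.2% and 31.6% in Tet2KO (43 and 35 peaks), and 45.6% and 43.0% in WT (40 in each). Tet2KO replicate 2 was apart from the other 5 libraries, which lay within a few points of each other. Mpo was the locus with the smallest spread between libraries: 40.4% and 37.9% in DKO, 39.5% and 37.7% in Tet2KO, and 38.9% and 40.0% in WT. All 6 Mpo values overlapped between genotypes. Spi1 had 36.1% and 30.2% in DKO, 39.7% and 31.3% in Tet2KO, and 36.6% and 35.6% in WT. Here replicates of a knockout differed more from each other than the genotypes did.

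Csf1r, Cebpa and Gfi1 were less densely covered. For Csf1r the values were 26.1% and 26.3% in DKO, 30.4% and 24.4% in Tet2KO, and 23.2% and 23.0% in WT. The 4 knockout libraries all lay above both WT libraries at this locus. Cebpa was 24.0% covered in both DKO libraries, 21.2% and 18.2% covered in Tet2KO, and 21.7% and 24.0% covered in WT, so that Tet2KO was low and the other genotypes overlapped. Gfi1 was 27.2% and 14.9% covered in DKO, 25.7% and 14.1% in Tet2KO, and 21.4% in both WT libraries. In both knockouts the second Gfi1 replicate was low and the first was high, on either side of the WT values. The order of the medians was Irf8 (42.9%), Mpo (39.2%), Spi1 (35.8%), Csf1r (25.2%), Cebpa (22.8%) and Gfi1 (21.4%), but the ranges of each pair of neighbours in that order overlapped.

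**Figure D1:**
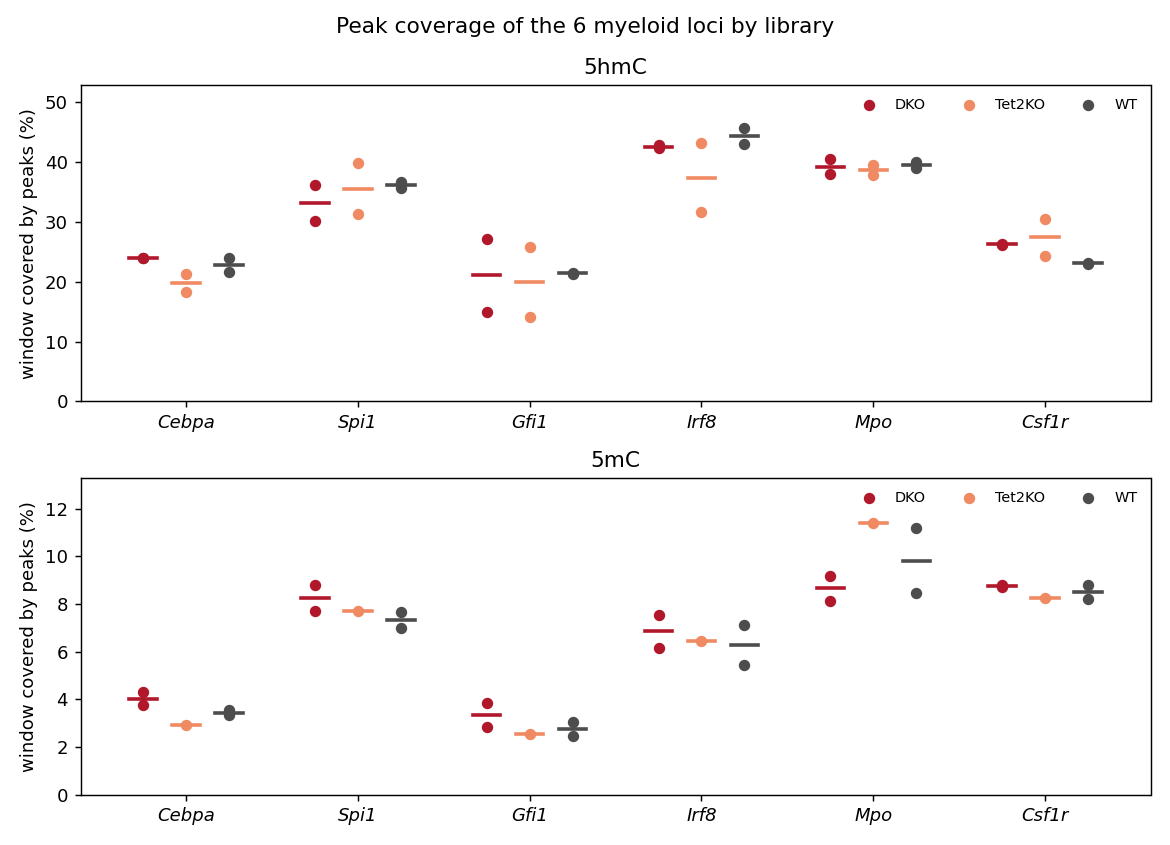
Percent of each window covered by 5hmC peaks (top) and 5mC peaks (bottom), with 1 point per library and a bar at the mean of each genotype (DKO, Tet2KO, WT from left to right; 2 libraries each, 1 for 5mC in Tet2KO). At Irf8 the Tet2KO libraries are at 43.2% and 31.6% and at Gfi1 the replicates of each knockout are far apart, while Mpo lies between 37.7% and 40.4% in all 6 5hmC libraries.

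Coverage was denser in the windows than beside them. In the 100 kb on each side of the windows, median 5hmC coverage was 9.64% around Cebpa, 9.81% around Spi1, 5.26% around Gfi1, 16.6% around Irf8, 21.4% around Mpo and 19.6% around Csf1r. At each of the 6 loci even the lowest library had more 5hmC coverage in the window than this median. At Csf1r, however, the range in the window (23.0% to 30.4%) overlapped that of the flanks (16.1% to 23.4%).

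5mC peaks covered a median of 6.40% of the 6 windows, with 64 to 81 peaks per library. By median, Mpo and Csf1r, the effector genes, were the most covered. Mpo had 8.12% and 9.19% in DKO, 11.4% in the Tet2KO library, and 11.2% and 8.45% in WT. Csf1r had 8.80% and 8.70% in DKO, 8.26% in Tet2KO, and 8.21% and 8.80% in WT. The genotypes overlapped at both. Spi1 had 7.72% and 8.78% in DKO, 7.71% in Tet2KO, and 6.99% and 7.68% in WT, and Irf8 had 7.55% and 6.17% in DKO, 6.45% in Tet2KO, and 7.11% and 5.43% in WT. The Spi1 range overlapped those of Mpo and Csf1r, and in DKO replicate 2 Spi1 lay above Csf1r. Cebpa was lower, with 4.29% and 3.76% in DKO, 2.92% in Tet2KO, and 3.57% and 3.32% in WT. Gfi1 was the least covered by 5mC, with 3.83% and 2.83% in DKO, 2.56% in Tet2KO, and 2.48% and 3.05% in WT. In the flanks, the median 5mC coverage was 0.69% around Gfi1 and 5.11% around Cebpa, where the window had less 5mC (median 3.57%) than its surroundings. Irf8 likewise had a median of 6.45% in the window and 7.37% in the flanks, whereas the windows of Spi1 (7.71%), Mpo (9.19%) and Csf1r (8.70%) lay above their flanks (4.18%, 5.69% and 5.23%).

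To compare the marks, which differ in how much of the genome their peaks cover, each value was divided by the percent of the placed genome covered in the same library. This relative coverage was above 1 at every locus in every library, but higher for 5hmC. For 5hmC it ran from 3.72 (Gfi1 in DKO replicate 2) to 11.2 (Irf8 in Tet2KO replicate 1), and for 5mC from 1.46 (Gfi1 in WT replicate 1) to 6.68 (Mpo in Tet2KO). The ratio of 5hmC to 5mC relative coverage was 2.91-fold at Gfi1 (log2 1.54), 2.66-fold at Irf8 (log2 1.41), 2.61-fold at Cebpa (log2 1.39), 1.88-fold at Spi1 (log2 0.91) and 1.71-fold at Mpo (log2 0.78). For these 5 loci the exact two-sided permutation test over the 462 splits gave p = 0.00216, the smallest p it can give. Csf1r had the smallest ratio, 1.25-fold (log2 0.32), with an exact permutation p of 0.00649. At all 6 loci every 5hmC library lay above every 5mC library. At Csf1r the 5hmC libraries had 5.48 to 7.91 and the 5mC libraries 4.84 to 5.28. These are 6 unadjusted tests, 1 per locus, and the libraries of the 3 genotypes enter as samples of a mark. Each mark comes from its own assay, hMe-Seal or MeDIP-seq, with peaks of different width. Mark and assay therefore cannot be told apart in these tests, and dividing by the genome coverage does not separate them. Where the number of peaks replaced the covered length, the Csf1r difference fell to 0.19 on the log2 scale and missed the threshold (exact permutation p = 0.126).

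**Figure D2:**
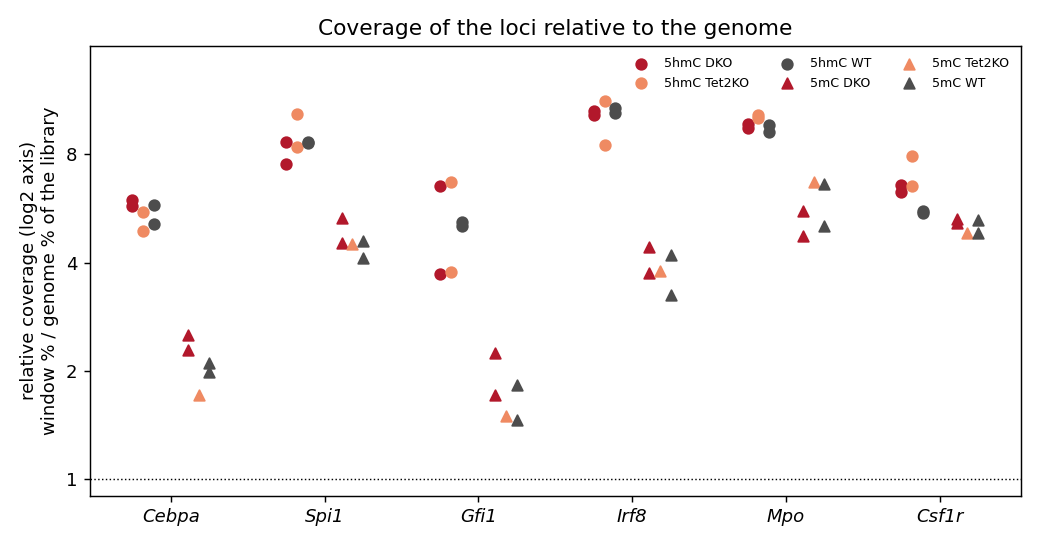
Relative coverage of each locus (percent of the window covered divided by percent of the placed genome covered in the same library, log2 axis), with 5hmC as circles and 5mC as triangles, coloured by genotype. The dotted line at 1 is the genome-wide level. The 5hmC values lie above the 5mC values at all 6 loci, with the narrowest distance at Csf1r (5.48 to 7.91 against 4.84 to 5.28).

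Within the windows, many regions recurred in every library of a mark. Peaks of a mark that overlapped by at least 1 bp were joined into regions. There were 147 such 5hmC regions in the windows, and 60 of them (40.8%) were occupied in each of the 6 libraries, beside 61659 of 206417 (29.9%) over the genome. Mpo had the largest constant share, 9 of 13 regions, followed by Irf8 with 18 of 39, Cebpa with 11 of 27 and Spi1 with 13 of 32. At Gfi1 4 of 16 and at Csf1r 5 of 20 regions were present in all 6. For 5mC there were 113 regions, and 38 of them (33.6%) were occupied in each of the 5 libraries, beside 32.3% over the genome. These were 7 of 14 at Mpo, 9 of 21 at Spi1, 8 of 20 at Csf1r, 10 of 32 at Irf8, 1 of 3 at Gfi1 and 3 of 23 at Cebpa. Constant 5hmC regions in the windows were broad, with a median width of 1640.5 bp beside 1182 bp over the genome, while constant 5mC regions had a median of 513 bp beside 463 bp. Regions are joined over libraries, and the windows are denser in peaks than the genome. The part of this density in the constant share and the width was not tested.

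The widest constant regions were 5hmC domains of several kilobases. Around Irf8, chr8:123273740-123280620 spanned 6881 bp and reached scores of 1409, 457, 766, 621, 1544 and 1520 in DKO 1 and 2, Tet2KO 1 and 2, and WT 1 and 2. The best score was lowest in DKO 2, where the region held 4 peaks, the best 771 bp wide, beside 4940 bp in DKO 1. Of chr8:123270001-123280000, which overlaps the region, 78.6% and 88.8% was covered in DKO, 91.0% and 67.2% in Tet2KO, and 85.0% and 80.8% in WT. DKO 2 was thus not low in coverage there. Around Cebpa, chr7:35934218-35940178 spanned 5961 bp with scores of 612 to 922. Around Mpo, chr11:87613849-87618913 spanned 5065 bp, with scores of 1227 and 1396 in DKO, 1655 and 891 in Tet2KO, and 1243 and 1032 in WT. Its best peak was in the top 0.598% of the list by score in every library. The widest constant 5hmC regions of the other loci spanned 3879 bp around Csf1r (chr18:61288618-61292496), 3318 bp around Gfi1 (chr5:108148352-108151669) and 3180 bp around Spi1 (chr2:90928295-90931474). Scores are the authors' own and were used only to rank peaks within a list.

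Gfi1 stood out for a single strong 5mC region in a window with almost no other 5mC. The interval chr5:108149930-108151109 spanned 1180 bp and scored 3100 and 2877 in DKO, 3100 in Tet2KO, and 3100 in both WT libraries. Between 0.11% and 0.14% of the peaks in each list scored as high. The same value of 3100 recurred in every genotype. Whether it is an upper limit of the score, whose scale is not given, was not tested. Neither the equal values nor the lower 2877 are therefore read as a comparison of genotypes. This 5mC region lay inside the widest 5hmC region of the locus, and no other 5mC region of the window was present in all 5 libraries. After it, the rest of the window, 18.9 kb, had no 5mC peak in any library. Strong constant 5mC regions also lay around Spi1 at chr2:90959189-90959761, with scores of 1621 to 2050, and chr2:90954783-90955886, with 998 to 1407. Around Irf8, chr8:123277155-123277804 scored 1986 and 1665 in DKO, 1565 in Tet2KO, and 1492 and 1962 in WT, and it also lay within the widest 5hmC domain of that locus. At Mpo the highest constant 5mC region, chr11:87610661-87611284, scored 596 to 920 and at Csf1r chr18:61295517-61296346 scored 263 to 478. At Cebpa it was chr7:35895122-35895431, with 349 to 780, and a stretch of 15.8 kb of that window (chr7:35898243-35914086) had no 5mC peak in any library.

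**Figure D3:**
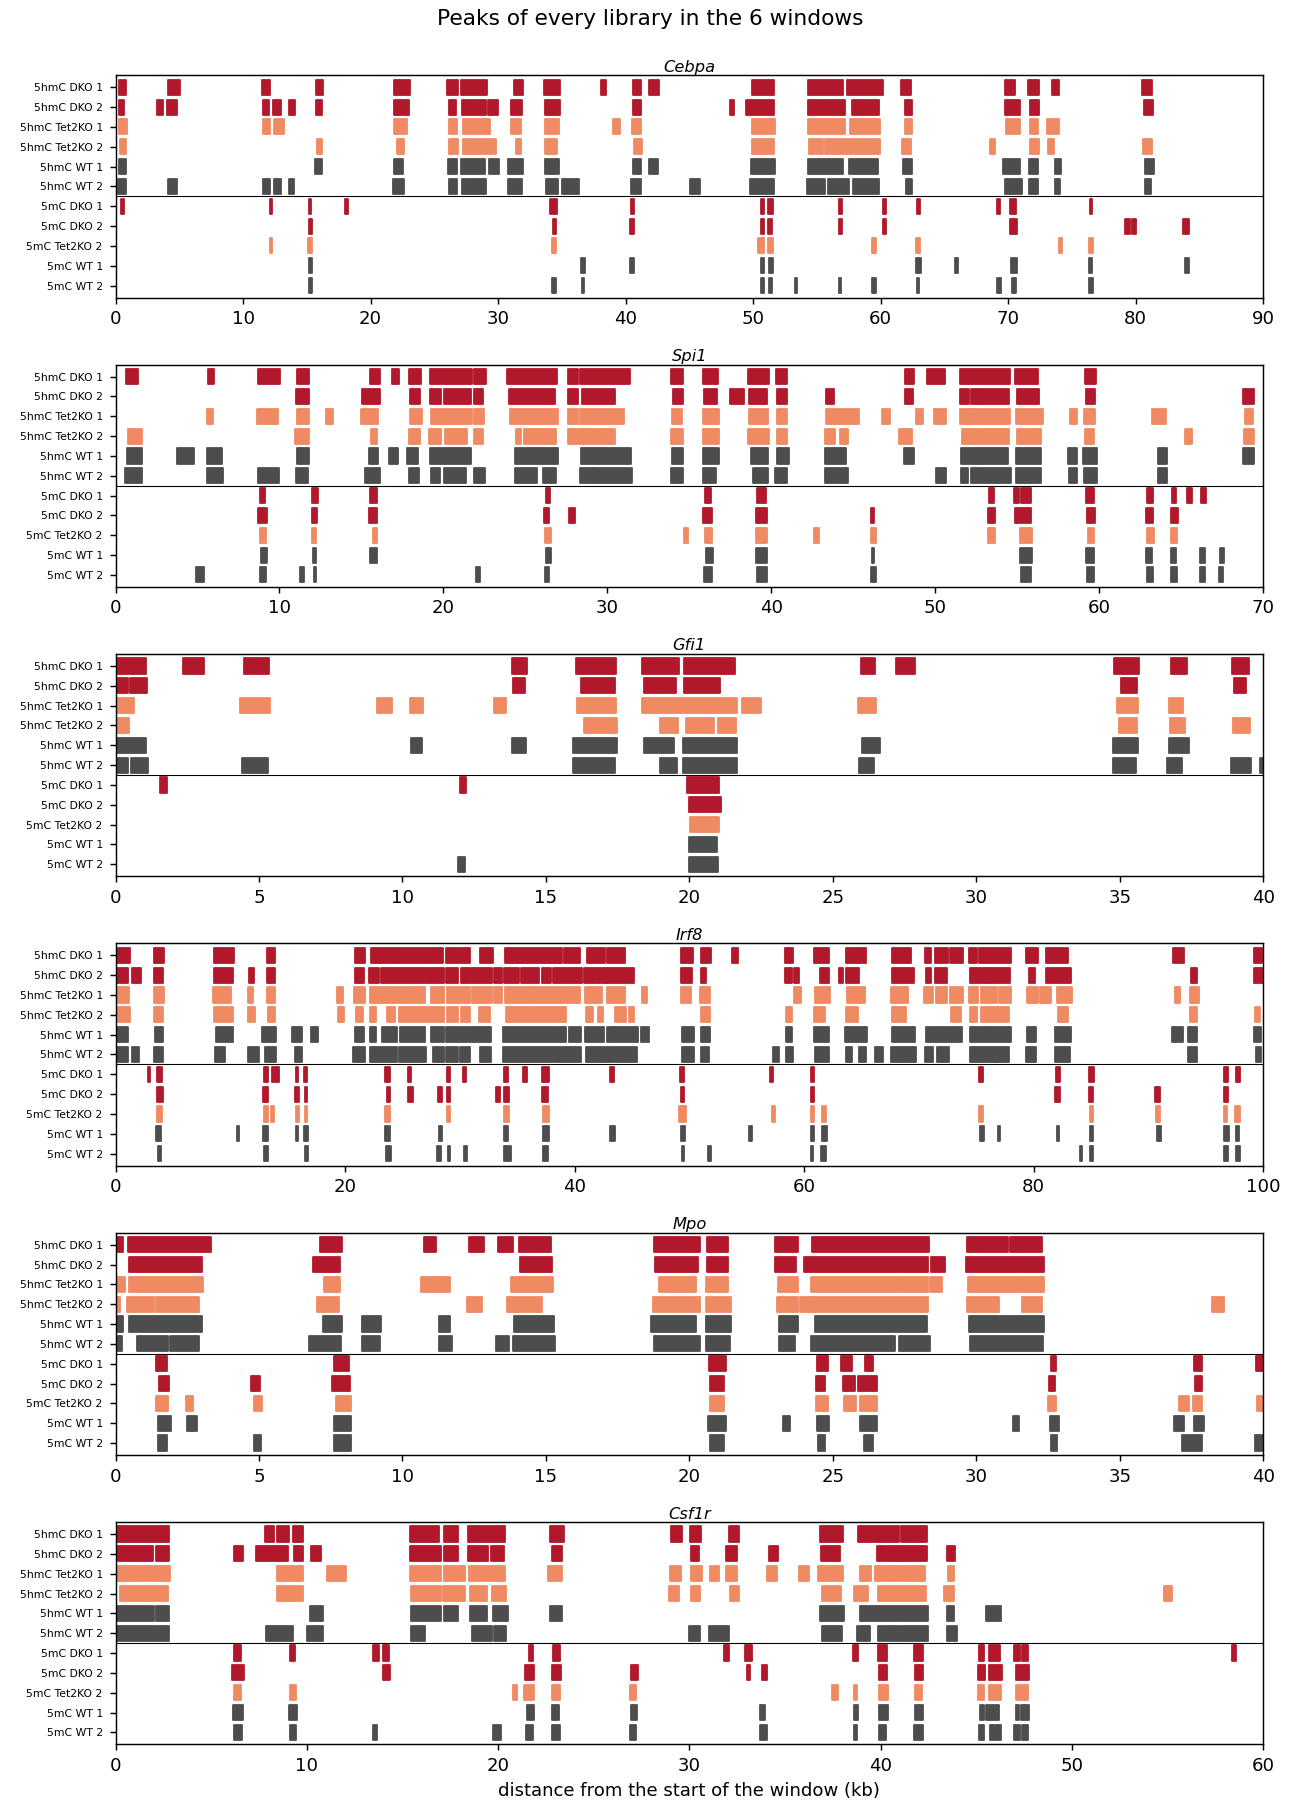
Every peak of every library in the 6 windows, with distance from the start of the window in kb on the x axis and 1 row per library (5hmC above the line, 5mC below it; DKO red, Tet2KO orange, WT grey). Broad 5hmC domains recur at the same places in all genotypes, and the Gfi1 window has 1 5mC region present in all 5 libraries, 1180 bp wide, under a 5hmC region.

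5mC in these windows often lay under 5hmC. Of the 113 5mC regions, 69 (61.1%) overlapped a 5hmC region, beside 32.4% over the genome, and 27 of the 38 constant ones did (71.1%, beside 39.6% over the genome). Measured in bases between libraries of the same genotype and number, 5hmC peaks lay over 56.0% and 57.5% of 5mC bases in DKO, 49.9% in Tet2KO, and 58.4% and 51.8% in WT. No source used here says that these numbers pair libraries. The Tet2KO values use 5hmC replicate 2, with 26.3% of the windows covered. Replicate 1, with 33.6%, was not compared with the 5mC library. Over the genome the shares of 5mC bases under 5hmC peaks were 22.9% and 23.0% in DKO, 21.0% in Tet2KO, and 26.0% and 25.7% in WT. The windows hold more 5hmC to begin with (26.3% to 33.6% covered, beside 3.73% to 4.23% of the genome), and its part in the overlap was not tested. The share differed between loci. It was highest at Gfi1, with 72.0% and 96.7% in DKO, 88.2% in Tet2KO, and 100% and 82.1% in WT, where the strong region lay under 5hmC peaks. It was lowest at Csf1r, with 27.0% and 32.9% in DKO, 32.0% in Tet2KO, and 39.3% and 24.9% in WT. The highest Csf1r value was below the lowest values at Spi1 (58.4%), Irf8 (41.2%), Mpo (48.2%) and Gfi1, and overlapped those at Cebpa (36.8% to 55.9%). Seen from the other mark, 52 of the 147 5hmC regions (35.4%, beside 29.3% over the genome) overlapped a 5mC region.

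**Figure D4:**
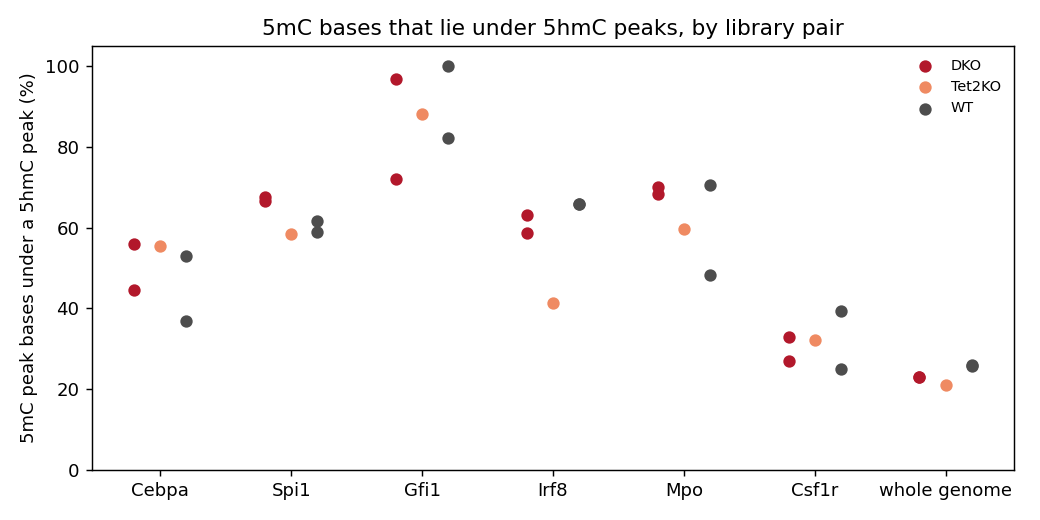
Percent of the bases in 5mC peaks that lie under a 5hmC peak of the same genotype and library number, by locus and for the whole genome, with 1 point per pair of libraries (5 pairs: 2 DKO, 1 Tet2KO, 2 WT). Gfi1 lies at 72.0% to 100%, Csf1r at 24.9% to 39.3% and the whole genome at 21.0% to 26.0%. The Tet2KO pair uses 5hmC replicate 2.

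Loss of the TET enzymes was then compared with WT over whole windows. In bulk cells, less of a mark per cell and fewer cells that carry it cannot be told apart. At Irf8 mean 5hmC coverage was 40.0% in the 4 knockout libraries and 44.3% in the 2 WT libraries (-4.36 points, exact two-sided permutation p = 0.4). At Spi1 it was 34.3% in the knockouts and 36.1% in WT (-1.81 points, exact p = 0.733), and at Cebpa 21.8% in the knockouts and 22.8% in WT (-0.97 points, exact p = 0.733). Gfi1 had 20.5% in the knockouts and 21.4% in WT (-0.91 points, exact p = 0.8), and Mpo had 38.9% in the knockouts and 39.4% in WT (-0.54 points, exact p = 0.6). At Csf1r the mean was higher in the knockouts, 26.8%, than in WT, 23.1% (3.71 points, exact p = 0.2). With 4 against 2 libraries the smallest possible p is 0.0667, so no locus could pass 0.05. Each difference was smaller than the SD of the 2 Tet2KO libraries at that locus (8.20 points at Irf8, 5.98 at Spi1, 2.12 at Cebpa, 8.22 at Gfi1, 1.27 at Mpo and 4.28 at Csf1r), which holds the low replicate 2. The other genotypes varied less at some loci. At Csf1r the SD was 0.094 points in DKO and 0.1002 in WT, and at Irf8 it was 0.34 in DKO and 1.82 in WT, all smaller than the difference at the locus. At Spi1 and Mpo the knockouts were higher, by 1.51 and 1.73 points, when only peaks with a score of at least 100 were used. Without Tet2KO replicate 2 the difference was -1.57 points at Irf8, -0.79 at Spi1, 0.24 at Cebpa and 1.22 at Gfi1. Without DKO replicate 2 it was -0.43 at Spi1 and 0.95 at Gfi1, and without WT replicate 2 it was 0.18 at Cebpa.

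Where the libraries of both groups did not overlap, the background shows how often other windows of that length behave likewise. All 4 knockout libraries lay above both WT libraries at Csf1r, as they did in 6.43% of 20293 tiles of 60 kb. Taken alone, the DKO libraries lay above WT at Csf1r (20.8% of tiles of 60 kb) and below WT at Irf8 (21.9% of tiles of 100 kb), and the Tet2KO libraries lay above WT at Csf1r (13.7% of tiles of 60 kb) and below WT at Cebpa (27.3% of tiles of 90 kb). For 5mC, both DKO libraries lay above both WT libraries at Cebpa (14.8% of tiles of 90 kb) and at Spi1 (15% of tiles of 70 kb). Such separations were therefore not rare in the genome. DKO and Tet2KO share the same WT libraries in these comparisons.

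A finer comparison used bins of 10 kb, which tile the windows exactly. Of the 40 bins, 39 entered the genome-wide fit for 5hmC and 34 that for 5mC, having a peak in at least 2 libraries of the mark. Their median coverage was 28.2% for 5hmC, beside 9.07% over all 74281 bins tested, and 6.55% for 5mC, beside 3.41% over 90130. Of all bins tested, 14.4% reached that 5hmC median of the windows and 22.7% the 5mC median. No bin in the windows passed limma's test after Benjamini-Hochberg adjustment, as none did over the genome (0% of bins in DKO over WT, Tet2KO over WT and DKO over Tet2KO for 5hmC and in DKO over WT for 5mC). At an unadjusted p under 0.05, which is no call, 2 of the 39 bins differed for 5hmC in DKO over WT (background 9.61%), 4 in Tet2KO over WT (10.5%) and 3 in DKO over Tet2KO (7.33%), and 3 of the 34 bins differed for 5mC in DKO over WT (6.8%). For 5hmC, 21 of the 39 bins had more coverage in DKO than in WT and 18 had less, and 12 had more and 27 less in Tet2KO than in WT. The median differences on the arcsine scale of the fit were 0.0067 in DKO over WT (-0.0021 over all bins) and -0.0297 in Tet2KO over WT (-0.0145 over all bins). Both balances turned with 1 library. Without Tet2KO replicate 2, 23 bins had more and 16 less in Tet2KO than in WT (median 0.0300). In DKO over WT 14 bins had more and 25 less without DKO replicate 1 (median -0.0231), 15 more and 24 less without WT replicate 2 (-0.0114), and 24 more and 15 less without DKO replicate 2 (0.0325). In DKO over Tet2KO 25 of the 39 bins had more and 14 less (median 0.0292, 0.0123 over all bins). This balance became 19 more and 20 less (-0.0057) without Tet2KO replicate 2. For 5mC 20 of 34 bins had more coverage in DKO than in WT, with a median difference of 0.0097 (-0.00036 over all bins).

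Among the bins chosen as the smallest p of each locus, the smallest p for 5hmC lay near the start of the Irf8 window, in chr8:123250001-123260000. It was 10.8% and 12.9% covered by 5hmC in DKO, 16.5% and 19.4% in Tet2KO, and 28.5% and 25.3% in WT. All 4 knockout libraries were below both WT libraries, as in 6 of the 39 bins of the windows (background 11.9%), and both DKO libraries were below both Tet2KO libraries. The limma difference in DKO over WT was -0.19 ± 0.04 on the arcsine scale (SE), with an adjusted p of 0.224, and -0.11 ± 0.04 in Tet2KO over WT (adjusted p = 0.422). With only peaks scoring at least 100 the DKO over WT difference was -0.085, and that in DKO over Tet2KO was 0.13, in place of -0.086 with all peaks. In the Spi1 window, chr2:90920001-90930000 went the other way: 77.6% and 71.4% in DKO, 74.5% and 65.6% in Tet2KO, and 59.4% and 57.7% in WT, a difference of 0.17 ± 0.05 in DKO over WT (limma adjusted p = 0.412). All 4 knockout libraries were above both WT libraries here, as in 3 of the 39 bins (background 5.38%). Around Cebpa, chr7:35920001-35930000 was 14.7% and 15.1% covered in DKO, 8.15% and 7.07% in Tet2KO, and 15.9% and 17.8% in WT, with a difference of -0.14 ± 0.04 in Tet2KO over WT (limma adjusted p = 0.243) and 0.12 ± 0.04 in DKO over Tet2KO (adjusted p = 0.504). Here Tet2KO stood low and both DKO libraries lay just below WT. In DKO over Tet2KO, the Spi1 bin chr2:90940001-90950000 had 17.3% and 15.7% in DKO and 35.6% and 25.0% in Tet2KO, beside 25.8% and 21.2% in WT (-0.16 ± 0.05, limma adjusted p = 0.531), a difference of -0.11 without Tet2KO replicate 1. A second Irf8 bin, chr8:123300001-123310000, had 45.8% and 41.2% in DKO, 42.9% and 33.0% in Tet2KO, and 52.3% and 51.0% in WT (Tet2KO over WT -0.14 ± 0.05, limma adjusted p = 0.412). That difference was -0.088 without Tet2KO replicate 2. The remaining bins with the smallest p of a locus, which include those of Gfi1, Mpo and Csf1r in all 3 contrasts, had unadjusted p-values of 0.064 to 0.521.

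**Figure D5:**
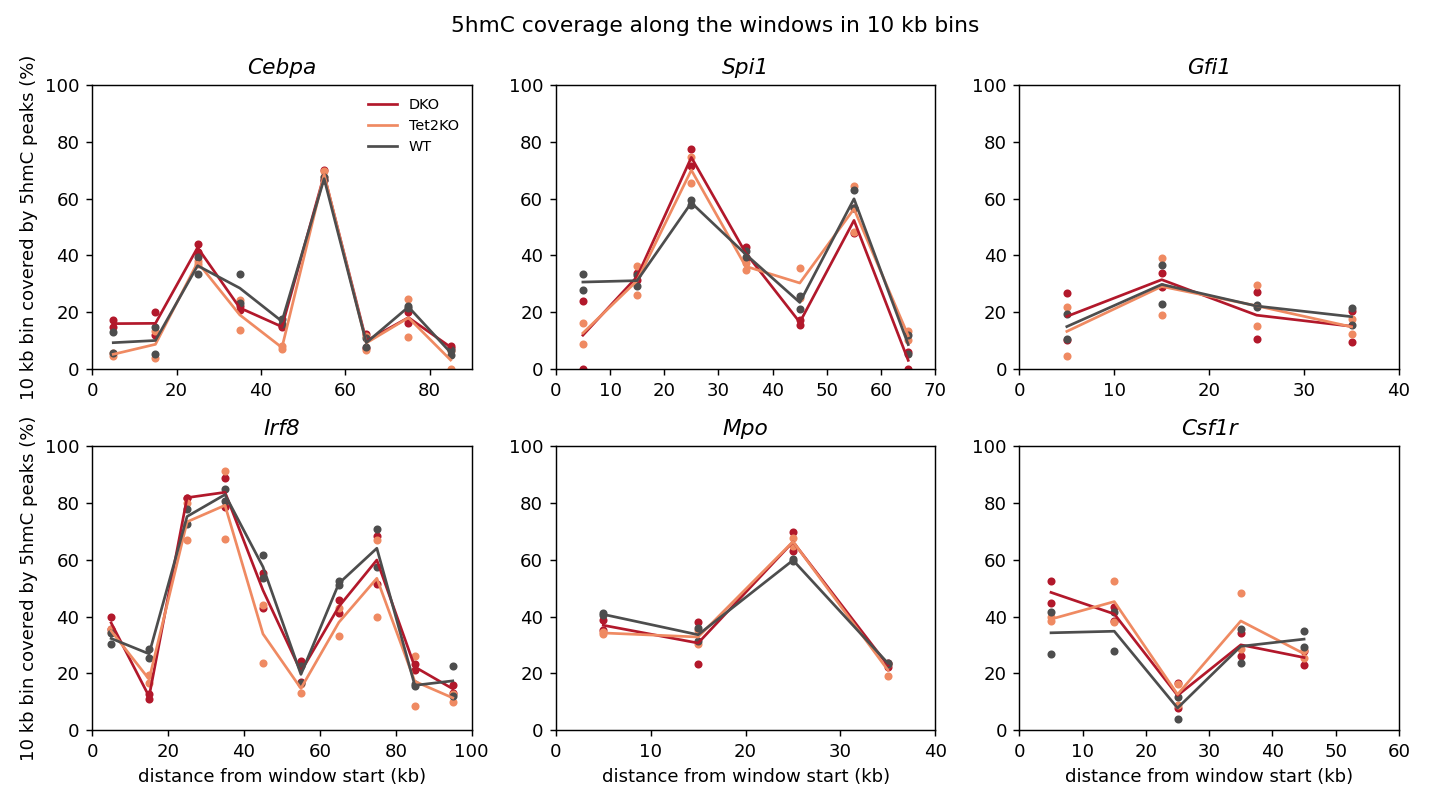
5hmC coverage in 10 kb bins along each window (x axis, distance of the bin's centre from the window start in kb; y axis, percent of the bin covered by peaks), with 1 point per library and a line through the mean of each genotype. The second Irf8 bin is lower in both knockouts (11.9% in DKO and 17.9% in Tet2KO, against 26.9% in WT) and the third Spi1 bin is higher (74.5% and 70.0%, against 58.5%); 1 Csf1r bin with a peak in fewer than 2 libraries is not drawn.

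Single regions were compared by presence: a region was counted as lost where both WT libraries and neither knockout library had a peak, and as gained in the opposite case, with no test. Of the 147 5hmC regions, 4 were lost in DKO over WT (background 3.3%) and 2 gained (4.18%). In Tet2KO over WT 3 were lost (3.27%) and 3 gained (3.42%), and in DKO over Tet2KO 1 was lost (2.21%) and 2 gained (2.81%). As shares of the 147 regions these are 2.72%, 1.36%, 2.04%, 2.04%, 0.68% and 1.36%, each below its background. The counts depend on the peaks used: with a score of at least 100, 2 were lost and 6 gained in DKO over WT, with equal numbers of top-scoring peaks 7 were lost, and with gaps of up to 200 bp merged 0 were gained. In DKO over Tet2KO, 2 were lost and 5 gained with equal numbers of peaks. Leaving out 1 library, which relaxes the rule, also raised these counts, to between 4 and 19. The backgrounds above belong to the main setting, and none is given for these alternatives. Of the 147 regions, 2 were present in both WT libraries and in none of the 4 knockout libraries (background 1.33%). At Irf8 this was chr8:123255391-123256235, with scores of 93.7 and 71.0 in WT, which lies in the bin described above and overlaps a 5mC region. At Mpo it was chr11:87598603-87599261, with 87.4 and 81.4 in WT. The opposite pattern, a peak in all 4 knockout libraries and in neither WT library, was found in 1 region (background 1.3%), at Spi1 in chr2:90927591-90928236. Its scores were 140 in both DKO libraries, and 133 and 85.5 in Tet2KO. It lies 58 bp from the widest constant 5hmC region of that locus, and was no longer separate from it when gaps of up to 200 bp were merged.

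The other changed 5hmC regions had low scores or split the knockouts. Around Spi1, chr2:90958114-90958665 and chr2:90963199-90964121 were lost in DKO over WT but had a peak in Tet2KO replicate 1 (scores of 66.2 and 139), beside 63.3 and 73.0, and 98.5 and 132, in the WT libraries. Around Irf8, chr8:123321020-123321686 was gained in DKO, with scores of 52.5 and 62.4, and was also present in Tet2KO replicate 1 (56.7). A peak at chr8:123259335-123259868 was present in both Tet2KO libraries alone, with scores of 54.8 and 52.7, and is thus a gain in Tet2KO over WT and a loss in DKO over Tet2KO. Csf1r had 1 region lost in Tet2KO over WT, chr18:61260007-61260865, with 83.5 and 79.4 in WT and a weak peak of 51.5 in DKO replicate 2, and 1 gained, chr18:61278947-61279592, with 101 and 70.9 in Tet2KO and 74.6 in DKO replicate 1. Regions with a peak in both DKO libraries and neither Tet2KO library were chr5:108143816-108144327 around Gfi1, with 52.9 and 65.0 in DKO and 51.7 in WT replicate 1, and chr7:35884049-35885025 around Cebpa, with 59.6 and 72.2 in DKO and 58.1 in WT replicate 2. The lowest score in any list was 50.

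For 5mC, the shares of regions that separated DKO from WT were above the background, but they rest on few regions and were not tested. They are therefore not read as a result about these loci. Of 113 regions 4 were lost (3.54%, background 2.37%) and 6 gained (5.31%, background 2.53%), with scores between 50.2 and 97.2. The lost regions were chr8:123301473-123301963 around Irf8 (73.7 and 97.2 in WT), chr7:35916521-35916853 around Cebpa (79.3 and 63.9), chr11:87626893-87627448 around Mpo (54.1 and 71.8) and chr2:90967320-90967581 around Spi1 (54.6 and 50.2). The single Tet2KO library also had the Irf8 and Mpo peaks (70.3 and 52.6). The gained regions were chr11:87615298-87615816 around Mpo (73.3 and 96.7 in DKO), chr8:123265459-123265891 around Irf8 (56.9 and 83.3), chr2:90953186-90953653 around Spi1 (80.2 and 62.6), chr7:35940169-35940428 around Cebpa (66.1 and 52.0), and chr18:61263982-61264339 and chr18:61282926-61283257 around Csf1r (60.3 and 59.9, and 66.7 and 58.1). Of these, the Mpo and Spi1 regions also had a peak in the Tet2KO library (90.9 and 78.1). With only peaks scoring at least 100, 0 regions were lost and 3 gained, and leaving out 1 library gave 8 to 12 lost and 9 to 19 gained. No share over the genome is given for these alternatives.

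In 10 kb bins, the 5mC differences with the smallest unadjusted p lay at Irf8, Spi1 and Mpo. The Irf8 bin chr8:123300001-123310000 was 2.07% and 2.55% covered in DKO, 5.36% in Tet2KO, and 7.15% and 6.52% in WT (difference -0.11 ± 0.02, limma adjusted p = 0.585). This bin also had the low Tet2KO 5hmC value given above. It holds the lost 5mC region chr8:123301473-123301963, with peaks of 0.433 and 0.427 kb in WT and none in DKO. The Spi1 bin chr2:90950001-90960000 was 17.2% and 18.8% covered in DKO, 15.2% in Tet2KO, and 11.8% and 10.1% in WT (0.10 ± 0.02, limma adjusted p = 0.585). It holds both strong constant 5mC regions of the locus and the gained region chr2:90953186-90953653. The gained region had peaks of 0.331 and 0.454 kb in DKO and none in WT. Peaks at the strong region chr2:90959189-90959761 spanned 0.469 and 0.498 kb in DKO, and 0.475 and 0.435 kb in WT. At the other, chr2:90954783-90955886, DKO replicates 1 and 2 had 2 peaks each (0.342 and 0.576 kb, 0.33 and 0.597 kb). WT had 1 each, of 0.703 and 0.571 kb. The last Mpo bin, chr11:87620001-87630000, was 7.28% and 4.94% covered in DKO, 11.7% in Tet2KO, and 12.1% and 11.8% in WT (-0.10 ± 0.03, limma adjusted p = 0.585). The Mpo bin holds the lost region chr11:87626893-87627448, with peaks of 0.347 and 0.278 kb in WT and none in DKO. DKO and WT libraries did not overlap in these 3 bins, which were chosen for their small p. Each of the 3 bins holds a lost or gained region already listed, so bins and regions are not separate results. Of the 34 bins, 6 were higher in both DKO libraries than in both WT libraries (background 14.9%) and 3 were lower (15%). With peaks scoring at least 100 the signs turned at Irf8 (0.15) and Spi1 (-0.0033). At Cebpa, Gfi1 and Csf1r the bins with the smallest p had unadjusted values of 0.221 to 0.507 for 5mC.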

How the data were processed

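Peak lists of 5hmC (6 libraries) and 5mC (5 libraries) were analysed; the other 17 of the 28 samples, RNA-seq libraries, were not analysed here. The authors deposited 1 list per library, with intervals and a score per peak whose scale is not given in the sources used here; the lowest is 50. The submitters' processing notes name MACS 1.4.2, Bowtie 0.12.9, CASAVA 1.4, Cuffdiff 2.2.1 and TopHat2 2.0.8 and the build mm9, without a role for each. For control libraries, duplicate removal and depth the sources used here give nothing, so no counting error can be stated, and depth can change the number and width of peaks.

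The members and lists were chosen with earlier results of these data known. Groups and replicate numbers came from the sample titles. The title of the 5mC Tet2KO library has the number 2 and its file name the number 1, and the title was followed. No source states that replicate libraries stem from different mice, so the spread behind each p-value may be technical. Covered bases were counted per library in the windows and in 10 kb bins. The placed genome is the sum of the highest peak end on each chromosome, 2641 Mb. Bins touched by peaks of 2 or more libraries of a mark were fitted with limma 3.58.1 (R 4.3.3, trend) on the arcsine of the square root of the covered fraction, all libraries of a mark in 1 fit without a block, with Benjamini-Hochberg adjustment over all bins and a threshold of 0.05. The fit was tested on simulated data with the same spread in every bin, which the real bins do not have. The simulation is therefore no measure of the power in these data. The single 5mC Tet2KO library was in that fit as a group of its own, with no contrast. Exact two-sided permutation tests compared whole windows. Named bins were the one with the smallest p per locus and contrast; named regions were every lost or gained region and the widest constant region. The highest-scoring constant regions, the Irf8 bin from 123250001 in Tet2KO and the stretches without peaks were added after their values were seen. Alternatives were a score of at least 100, equal numbers of top-scoring peaks, bins of 100 kb, a mean covered fraction of at least 0.05, an untransformed fraction, a replicate block, gaps of up to 200 bp merged, and leaving out each library. Python 3.11.15, numpy 2.4.6, pandas 2.3.3 and matplotlib 3.10.9 were used. A gene annotation of mm9 was not used here, so peaks are not assigned to exons or introns and the other myeloid genes planned for comparison were not placed.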

Additional observations from a re-analysis of the deposited data

Results flagged for a closer look

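The single 5mC library of Tet2KO entered no comparison between genotypes. In the 6 windows it had a peak in 67 regions, of which 10 (14.9%) had no peak in either WT library, beside 17.1% over the genome. Of these 10 regions 5 also had a peak in a DKO library, and their scores ran from 50.8 to 90.9. It was singled out because the signal appears in a library that the comparisons do not use. With 1 library there is no replicate check.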

How the results depend on the processing

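No bin passed the adjusted threshold in any of the 4 contrasts under any alternative run (12 alternatives each for 5hmC, 10 for 5mC), the smallest adjusted p being 0.0879 for 5hmC and 0.358 for 5mC. Same-numbered libraries did not deviate together (correlations of 0.0219, 0.0226 and 0.00197 for 5hmC and -0.0494 for 5mC), and with the replicate block the count of called bins was also 0. Of 226 values of 24 named bins under alternatives, 13 had the opposite sign. The replicate block, the minimum mean fraction and leaving out a library outside the contrast leave a bin's difference as it was. Such values could not turn, so this count does not measure how stable the signs are. Relative coverage was higher for 5hmC at all 6 loci under each alternative, with log2 ratios without each library of 1.31 to 1.45 (Cebpa), 0.86 to 0.97 (Spi1), 1.46 to 1.63 (Gfi1), 1.35 to 1.47 (Irf8), 0.71 to 0.84 (Mpo) and 0.26 to 0.36 (Csf1r). By number of peaks Csf1r had 0.19 (exact permutation p = 0.126). In WT alone the ratios were 1.41, 0.99, 1.65, 1.52, 0.71 and 0.13 in the same order, where 2 against 2 libraries cannot give a p below 0.333.

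The difference of both knockouts from WT in 5hmC coverage turned to 1.51 points (Spi1) and 1.73 (Mpo) with a score of at least 100; the cause was not tested. Without each library it ran from -2.12 to 0.24 at Cebpa, -3.61 to -0.43 at Spi1, -3.15 to 1.22 at Gfi1, -5.65 to -1.57 at Irf8, -1.05 to -0.02 at Mpo and 2.51 to 4.53 at Csf1r. Counts of changed regions moved most. With a score of at least 100, 5hmC in DKO over WT had 2 lost and 6 gained, and 5mC 0 lost and 3 gained. With equal numbers of peaks, 7 were lost in DKO over WT, and 2 lost and 5 gained in DKO over Tet2KO. With gaps merged, 0 were gained in DKO over WT. Leaving out 1 library, chosen after seeing the data, relaxes the rule and gave 8 to 10 lost and 7 to 10 gained 5hmC regions in DKO over WT, 7 to 12 and 5 to 19 in Tet2KO over WT, and 4 to 17 and 8 to 10 in DKO over Tet2KO. For 5mC it gave 8 to 12 lost and 9 to 19 gained. No share over the genome is given for these alternatives, so their counts are not set against a background.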
